A study of Mus musculus with 6 samples.

Results

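The 33 genes described here encode proteins of epithelial cells and of the endoderm, the layer that lines the embryonic gut, and were read in cell cultures that the study prepared so as to lose that layer and keep the mesenchyme. They were chosen by knowledge of the cell type, with earlier results of these data known, and all 33 were among the 12393 genes measured. Where several probe sets named a gene, the one brightest on average stands for it. The tissue came from C57BL/6 mouse embryos at embryonic day 13.5, was treated with collagenase-dispase and then trypsin, and was kept for 3 days in medium with 20% fetal bovine serum. Total RNA was hybridised to Affymetrix arrays, 2 per group, which the labels call biological replicates. The stomach and intestine controls carried the genotype Rosa26+/Barx1 or Bapx1+/Cre, that is 1 of the alleles without the other, and count as wild type in the labels, and the third group was intestine of Rosa26+/Barx1;Bapx1+/Cre embryos, called Barx1 intestine here. BARX1 is a homeodomain factor of stomach mesenchyme. Bapx1, also called Nkx3-2, is a gene of gut mesenchyme and of the sclerotome, so Cre from this locus is not directed to the epithelium. The labels do not say how many embryos went into a culture.

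The epithelium of the gut is held together by junctions and supported by keratin filaments. Claudins and occludin form the tight junction, E-cadherin the adherens junction, and desmoplakin and desmoglein the desmosome, which anchors the keratins. FOXA factors and HNF4A establish endoderm identity, and the epithelium sends Hedgehog ligands to the mesenchyme beneath it. Mesenchymal cells hold little of the junction proteins, while the mesothelium, the outer covering of the gut, also makes simple keratins.

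The levels are log2 values summarised by RMA, with array medians of 6.93 to 6.98. Barx1 read 9.82 and 9.79 on the stomach arrays, 5.13 and 4.93 on the intestine arrays, and 8.66 and 8.79 on those of Barx1 intestine, which matches the labels. All 20 measured mesenchyme genes were above background on every array, with Vim, an intermediate filament gene, at 14.02 to 14.14 and Acta2, smooth muscle actin, at 14.55 to 14.61. As a measure of background, 71 probe sets of olfactory, vomeronasal and taste receptor genes were used, whose 95th percentile lay between 5.03 and 5.23. A level above that percentile is called above background here, although probe sets differ in their own background and 5% of the receptor probe sets pass by construction. Intestine replicate 1 stood apart from the other arrays for the epithelial genes, and the results are given with and without it.

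Of the 33 genes, 22 were above background on all 6 arrays, 4 on some and 7 on none. The 22 held all the simple keratins, 5 of 7 tight junction genes, both adhesion genes, all 4 desmosome genes and 3 of 4 surface protease and inhibitor genes. Over all genes, 8812 of 12393 were above background on all 6 arrays, so the count of 22 does not set the 33 genes apart. Of the genes that mark endoderm identity or its signals, Shh and Ihh were above background on no array. Foxa2 was so on 2 arrays, Sox17 on 3 and Foxa1 on 4. Hnf4a passed on all 6 arrays with its chosen probe set and with another (5.52 to 5.74), while its remaining probe sets read between 3.22 and 3.72, below background.

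**Figure D1:**
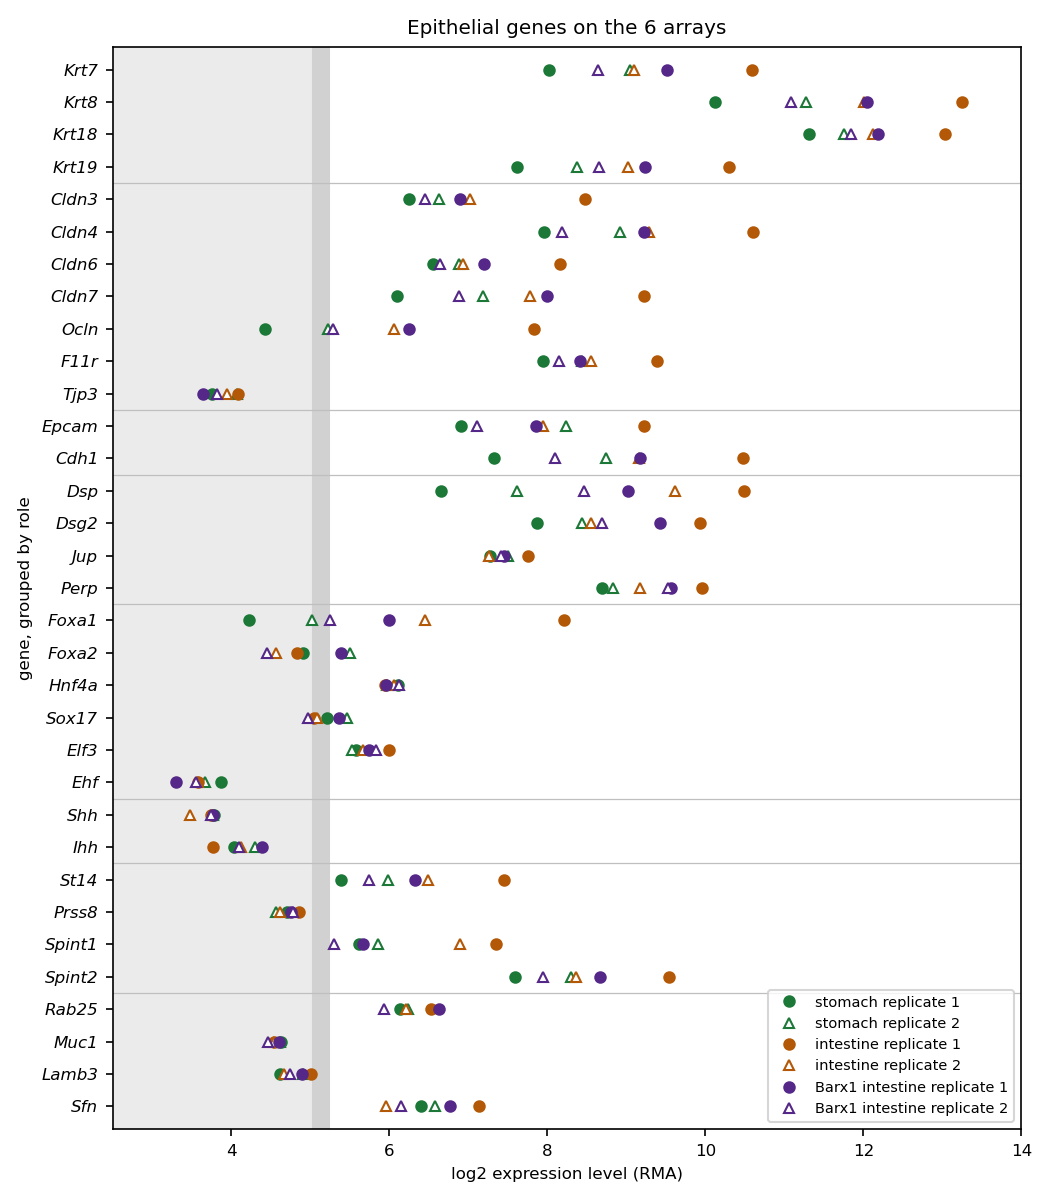
Log2 expression level of each of the 33 genes on the 6 arrays (horizontal axis), with genes on the vertical axis grouped by role; filled circles are replicate 1, open triangles replicate 2, and the grey area ends at the 95th percentile of receptor probe sets (5.03 to 5.23 over the arrays, darker band). Intestine replicate 1 is the rightmost point for 25 genes, and stomach replicate 1 the leftmost for 19.

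The simple keratin genes encode the filament proteins of simple epithelia, Krt8 of type II pairing with Krt18 of type I. Krt8 read 10.12 and 11.27 on the stomach arrays, 13.25 and 12.01 on the intestine arrays, and 12.05 and 11.08 on those of Barx1 intestine. The highest value was that of intestine replicate 1 and the lowest that of stomach replicate 1, and the other 4 arrays lay within 1 log2 unit of each other. Stomach minus intestine was -1.93 (SE 0.59, adjusted p = 0.0791). Barx1 intestine minus intestine was -1.06 (SE 0.59, adjusted p = 0.341). The other 2 probe sets of Krt8 gave -1.98 and -1.91 for stomach against intestine. Krt18 read 11.31 and 11.75 on the stomach arrays, 13.03 and 12.12 on the intestine arrays, and 12.19 and 11.84 on those of Barx1 intestine. Krt7, a keratin of ducts and simple epithelia, ran from 8.02 to 10.59, and Krt19, the smallest keratin, from 7.62 to 10.30. All 4 keratins had both stomach arrays below both intestine arrays, and none passed the threshold of an adjusted p under 0.05 in limma in any comparison (adjusted p from 0.0695 to 0.633).

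Among the tight junction genes, Cldn4, a barrier claudin, read 7.95 and 8.92 on the stomach arrays, 10.60 and 9.29 on the intestine arrays, and 9.22 and 8.18 on those of Barx1 intestine. Cldn7 ran from 6.09 on stomach replicate 1 to 9.23 on intestine replicate 1, Cldn3 from 6.25 to 8.48 and Cldn6, an embryonic claudin, from 6.55 to 8.15. The 4 claudins shared the same extreme arrays. All 4 probe sets of Cldn3 gave a lower mean in stomach than in intestine (-0.83 to -1.42). Ocln, which encodes occludin, read 4.42 and 5.23 on the stomach arrays, 7.84 and 6.06 on the intestine arrays, and 6.24 and 5.29 on those of Barx1 intestine. Its stomach replicate 1 lay below background, so its difference of -2.12 (SE 0.65, adjusted p = 0.0816) between stomach and intestine is limited in size by background on that array. F11r, the gene of the junctional adhesion molecule JAM-A, which leukocytes and endothelium also make, ran from 7.94 to 9.38. Tjp3, of the scaffold protein ZO-3, was above background on no array (3.65 to 4.08). None of the 7 passed in any of the 3 comparisons.

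Cdh1 encodes E-cadherin, the homophilic adhesion receptor of epithelia, and Epcam an epithelial adhesion molecule. Cdh1 read 7.32 and 8.74 on the stomach arrays, 10.47 and 9.16 on the intestine arrays, and 9.17 and 8.10 on those of Barx1 intestine. Epcam read 6.91 and 8.24 on the stomach arrays, 9.22 and 7.95 on the intestine arrays, and 7.86 and 7.11 on those of Barx1 intestine. The replicates of both genes lay far apart in every group, by 0.75 to 1.42. For Epcam, stomach replicate 2 exceeded intestine replicate 2, so those groups overlapped, whereas both Barx1 intestine arrays were below both intestine arrays. The group differences of Cdh1 were -1.79 (SE 0.66, adjusted p = 0.127) for stomach and -1.18 (SE 0.66, adjusted p = 0.348) for Barx1 intestine, each against intestine. Those of Epcam were -1.01 (SE 0.60, adjusted p = 0.295) and -1.10 (SE 0.60, adjusted p = 0.333).

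The desmosome genes behaved less alike. Dsp, for desmoplakin, which links the desmosome to keratin filaments, read 6.65 and 7.61 on the stomach arrays, 10.49 and 9.62 on the intestine arrays, and 9.02 and 8.46 on those of Barx1 intestine. The groups stood in the order intestine, Barx1 intestine, stomach without overlap, and in stomach against intestine Dsp fell by 2.92 on the log2 scale, a 7.59-fold difference (SE 0.43, adjusted p = 0.0123 by limma, n = 2 each). A second Dsp probe set gave -2.78, and the third read 3.64 to 3.81, below background. Against intestine, the Barx1 intestine differed by -1.31 (SE 0.43, adjusted p = 0.145), and against stomach by 1.61 (SE 0.43, adjusted p = 0.093). Dsg2, for desmoglein 2, ran from 7.87 to 9.93, with its Barx1 intestine arrays (9.42 and 8.70) both above intestine replicate 2 (8.55). Perp, of a desmosomal membrane protein, read 8.69 and 8.83 on the stomach arrays, 9.95 and 9.17 on the intestine arrays, and 9.56 and 9.52 on those of Barx1 intestine. Jup, for plakoglobin, which adherens junctions of other cells also use, varied least of the 4, from 7.26 to 7.75.

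Of the transcription factor genes, Foxa1 was the 1 that followed the junction genes. FOXA1 is a forkhead pioneer factor of endoderm. Foxa1 read 4.23 and 5.02 on the stomach arrays, 8.21 and 6.45 on the intestine arrays, and 5.99 and 5.25 on those of Barx1 intestine. Both stomach arrays lay below background and both intestine arrays above it, and in stomach Foxa1 fell by 2.71 (SE 0.62, adjusted p = 0.0392 by limma, n = 2 each), a size limited by the background. The Barx1 intestine differed from intestine by -1.71 (SE 0.62, adjusted p = 0.179). Foxa2, its paralog in endoderm and notochord, read 4.90 and 5.50 on the stomach arrays, 4.83 and 4.57 on the intestine arrays, and 5.38 and 4.46 on those of Barx1 intestine, an order unlike that of Foxa1. Hnf4a, of a nuclear receptor of gut and liver epithelium, stayed between 5.94 and 6.13. Sox17, a gene of definitive endoderm and also of endothelium, ran from 4.97 to 5.46. The ETS factor genes Elf3 and Ehf ran from 5.53 to 5.99 and from 3.29 to 3.87. None of these 5 passed in any comparison (adjusted p from 0.144 to 0.979).

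Shh and Ihh encode the Hedgehog ligands of the gut epithelium. Shh read 3.78 and 3.77 on the stomach arrays, 3.75 and 3.48 on the intestine arrays, and 3.76 and 3.74 on those of Barx1 intestine. Ihh read 4.03 and 4.30 on the stomach arrays, 3.77 and 4.12 on the intestine arrays, and 4.39 and 4.10 on those of Barx1 intestine. All 12 values were below background, so these arrays give no level for either ligand.

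St14, for the membrane serine protease matriptase, read 5.39 and 5.98 on the stomach arrays, 7.45 and 6.49 on the intestine arrays, and 6.33 and 5.75 on those of Barx1 intestine. Spint1 and Spint2 encode Kunitz-type inhibitors of matriptase. Spint1 read 5.61 and 5.85 on the stomach arrays, 7.34 and 6.89 on the intestine arrays, and 5.67 and 5.29 on those of Barx1 intestine. Both intestine arrays were above the other 4, which lay within 0.56 of each other. In stomach Spint1 fell by 1.39 (2.61-fold, SE 0.20, adjusted p = 0.0117), and in Barx1 intestine it fell by 1.64 (3.11-fold, SE 0.20, adjusted p = 0.0221, limma, n = 2 each). These comparisons share the intestine arrays. The Barx1 intestine and stomach differed by -0.25 (SE 0.20, adjusted p = 0.491). Spint2 ran from 7.59 to 9.54 with the same lowest and highest arrays as the keratins, and Prss8, for prostasin, a protease that matriptase activates, was below background on every array (4.57 to 4.86).

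Of the remaining genes, Sfn, for the epithelial protein 14-3-3 sigma, read 6.41 and 6.57 on the stomach arrays, 7.13 and 5.95 on the intestine arrays, and 6.77 and 6.14 on those of Barx1 intestine. Its intestine arrays were the highest and the lowest of the 6. Rab25, of a GTPase of epithelial recycling endosomes, ran from 5.93 to 6.62. Muc1, of a membrane mucin, and Lamb3, of the laminin-332 beta chain, were below background throughout (4.47 to 4.63 and 4.61 to 5.01). No difference of these 4 passed (adjusted p from 0.435 to 0.989).

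The spread between replicates was large for these genes and ran in 1 direction within each group. Intestine replicate 1 exceeded replicate 2 for 28 of the 33 genes, with a median of 0.87, against a median of 0.0092 and an SD of 0.232 over all genes. In Barx1 intestine, replicate 1 was likewise the higher for 28 genes (median 0.56, SD over all genes 0.199). In stomach it was replicate 2 that was higher, for 27 genes (median of replicate 1 minus replicate 2 -0.38, SD over all genes 0.149). A difference over 0.5 between replicates was found for 19, 17 and 14 of the 33 genes in intestine, Barx1 intestine and stomach, against 4.20%, 2.43% and 0.960% of all genes. The same 13 genes differed by more than 0.5 in all 3 groups: Krt7, Krt8, Krt19, Cldn4, Cldn7, Ocln, Epcam, Cdh1, Dsp, Dsg2, Foxa1, St14 and Spint2. Only 41 of all 12393 genes did so, which is 0.331%. At the other end, 12 of the 33 stayed within 0.5 in every group, namely the 7 below background on all arrays together with Jup, Hnf4a, Sox17, Elf3 and Spint1. The replicate differences of Spint1 were -0.24 for stomach, 0.45 for intestine and 0.37 for Barx1 intestine, in the replicate order of the 13 genes and larger than the SD over all genes.

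**Figure D2:**
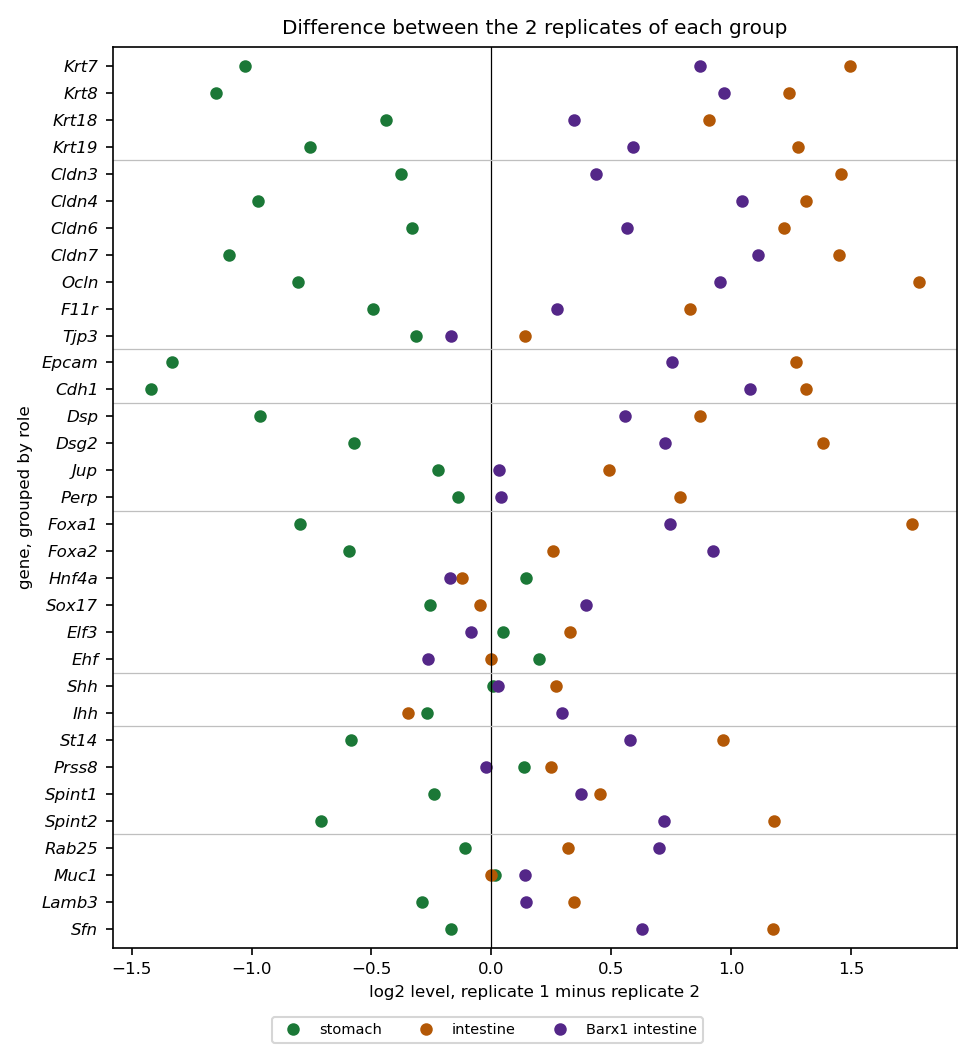
Difference in log2 level between replicate 1 and replicate 2 (horizontal axis) for each of the 33 genes, grouped by role (vertical axis), in stomach, intestine and Barx1 intestine, 1 point per group. Most points of intestine and Barx1 intestine lie right of 0 and most of stomach left of it, with medians of 0.87, 0.56 and -0.38.

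Single arrays of different groups could be closer to each other than the replicates of 1 group. Barx1 intestine replicate 1 and intestine replicate 2 differed by more than 0.5 for 5 of the 33 genes, with a median of -0.14 for intestine minus Barx1 intestine. Stomach replicate 2 and Barx1 intestine replicate 2 differed by more than 0.5 for 7 (median 0.19 for stomach minus Barx1 intestine). Intestine replicate 1 and stomach replicate 1, the arrays farthest apart, had a median difference of -1.60 for stomach minus intestine and differed by more than 0.5 for 20. A smaller share of epithelial cells in a culture and less of their RNA per cell cannot be told apart in such bulk samples.

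The comparison of stomach with intestine asks how the organs of origin differ. Of the 33 genes 3 fell in stomach, namely Dsp, Foxa1 and Spint1, and 0 rose, where 8.09% of all genes passed as lower, 8.86% as higher and 16.9% in either direction. At an unadjusted p under 0.05 in limma, 14 were lower and 0 higher, where 16.3% of all genes were lower and 17.4% higher. The median difference of the 33 was -0.83, against 0.019 over all genes, and 26 had a lower mean in stomach (45.8% of all genes). Both stomach arrays were below both intestine arrays for 19 genes (29.6% of all genes), and above them for 5, Foxa2, Sox17, Ehf, Shh and Muc1 (34.5% of all genes). These 5 were at or near background. Without intestine replicate 1 the median was -0.38, and without intestine replicate 2 it was -1.44. It was -0.65 without stomach replicate 1 and -1.03 without stomach replicate 2. Fewer of the 33 genes, and also fewer of all genes, were called without either stomach array. Foxa1 lost its call in 5 of the 6 fits without 1 array.

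Intestine with BARX1 in its mesenchyme was set against control intestine to ask what changes with the factor. Spint1 was the 1 gene of 33 that fell, and 0 rose by limma, where 2.12% of all genes passed as lower, 1.86% as higher and 3.98% in either direction. At an unadjusted p under 0.05, Dsp, Foxa1 and Spint1 were lower and 0 were higher, where 11.3% of all genes were lower and 12.3% higher. The median difference was -0.56, against 0.021 over all genes, and 26 genes had the lower mean in Barx1 intestine (43.9% of all genes). Arrays did not overlap for 10 genes, all lower in Barx1 intestine (22.4% of all genes), which were Cldn3, Cldn4, F11r, Tjp3, Epcam, Dsp, Foxa1, Ehf, St14 and Spint1, and for 0 in the other direction (30.1% of all genes). Without intestine replicate 1 the median was -0.052, with Spint1 still called. The Spint1 difference was -1.82 without Barx1 intestine replicate 1 and -1.45 without replicate 2, and it stayed at -1.64 without either stomach array. Spint1 missed the threshold in each of these fits, in which fewer of all genes passed as well.

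Between Barx1 intestine and stomach, 0 of the 33 genes passed in limma in either direction, where 2.56% of all genes passed as higher, 2.64% as lower and 5.20% in either direction. At an unadjusted p under 0.05, Dsp and Perp were higher in Barx1 intestine (12.3% of all genes) and Ehf, which is below background on every array, lower (11.9% of all genes). The median was 0.20, against -0.00077 over all genes. Both Barx1 intestine arrays were above both stomach arrays for 9 genes, among them Krt18, Krt19, Ocln, Dsp and Foxa1 (29.5% of all genes), and below them for 3, Ehf, Shh and Muc1 (28.5% of all genes). The medians of the keratins and of the desmosome genes in this comparison were 0.71 and 0.84, and those of the tight junction genes and of the pair Epcam and Cdh1 were 0.24 and 0.26. Perp was called without either intestine array, and in a fit of these 2 groups alone.

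**Figure D3:**
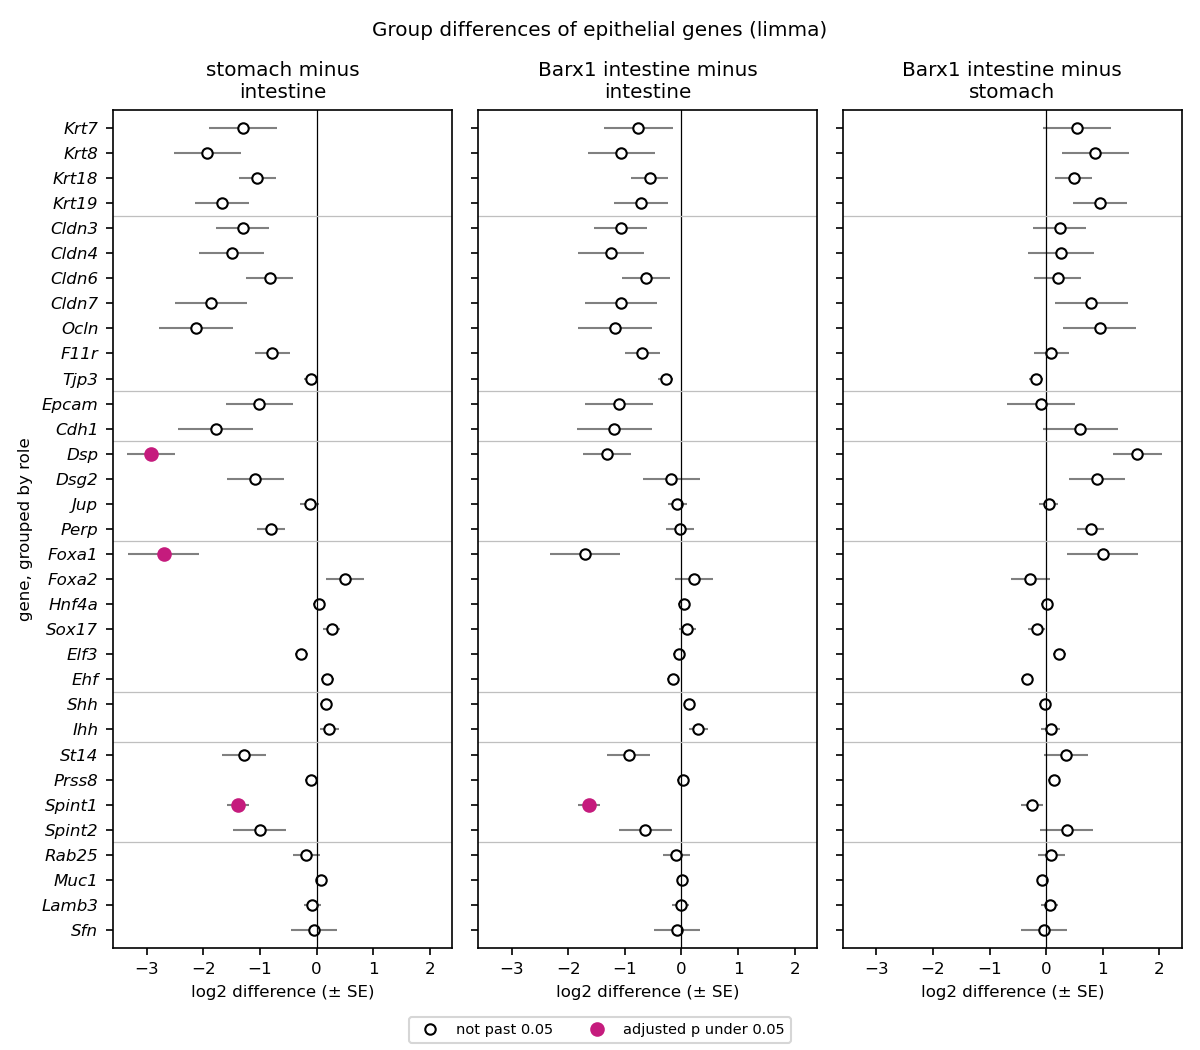
Log2 difference between groups with its SE from limma (horizontal axes) for the 33 genes grouped by role (vertical axis), in the 3 comparisons; filled points have an adjusted p under 0.05. Dsp, Foxa1 and Spint1 are filled for stomach minus intestine, Spint1 for Barx1 intestine minus intestine, and no gene for Barx1 intestine minus stomach.

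Genes outside the 33 with the most similar profile were sought among 541 genes with an SD of at least 0.5 over the 6 arrays, by Pearson correlation with the mean profile of the 33. The 10 closest had r of 0.980 to 1.00 over the 6 arrays, which share their groups and cultures, and are a description only. They were Cdcp1, Wfdc2, Marveld2, Elovl7, Lad1, Esrp1, Ripk4, Kdf1, Esrp2 and Tmem30b. Marveld2 encodes tricellulin of the tight junction, Esrp1 and Esrp2 are splicing regulators of epithelial cells, and Lad1 encodes ladinin of the basement membrane. Cdcp1, of a membrane protein that matriptase cleaves, read 6.23 and 7.12 on the stomach arrays, 8.92 and 7.46 on the intestine arrays, and 7.61 and 6.85 on those of Barx1 intestine.

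A broader list of 48 further epithelial genes had 9 members lower and 1 higher in stomach than in intestine, with a median of -0.32. Of all genes, 8.09% passed as lower and 8.86% as higher there. Tspan8, a tetraspanin of gut epithelium, fell (-2.93, adjusted p = 0.00651), a size limited by background because both stomach arrays (3.41 and 3.28) were below it. Cldn1 (-1.28, adjusted p = 0.00126) and Ceacam1, an adhesion molecule (-0.43), fell too, as did Erbb3 (-1.74), which glial precursors also express. Cldn1 read 6.68 and 6.78 on the stomach arrays, 8.02 and 8.01 on the intestine arrays and 7.68 and 7.78 on those of Barx1 intestine, so its replicates lay close together, unlike those of Cldn4 and Cldn7. In Barx1 intestine against intestine the list had Erbb3 lower (-2.60) and Itga6, an integrin chain, higher (0.45), with a median of -0.12. Of all genes, 2.12% passed as lower and 1.86% as higher in that comparison. Against stomach the list had 4 higher, Ceacam1, Cldn1, Itga6 and Pkp2 (2.56% of all genes), and Erbb3 lower (2.64% of all genes).

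Genes of regional endoderm and of differentiated gut epithelium were followed as well. Cdx1, a homeobox gene of intestinal epithelium, was below background on all arrays (3.88 to 4.15), and Cdx2 lay near it, from 5.10 to 5.40. Of 17 measured regional endoderm factors, Gata6 rose in stomach (0.86) and Hhex fell (-0.92), with 15 not past the threshold. Of all genes, 8.86% passed as higher and 8.09% as lower. In Barx1 intestine Hhex fell against intestine (-1.30) and Gata6 was lower than in stomach (-1.33). Which cells of the cultures expressed Gata6 and Hhex was not tested. Among 19 enterocyte and secretory genes, 6 fell in stomach (8.09% of all genes). They included Krt20 (-1.41), a keratin of differentiated gut epithelium, and the fatty acid binding protein genes Fabp2 (-2.12) and Fabp1 (-1.82). Apob, of a lipoprotein of enterocytes and liver, fell as well (-1.62). Krt20 read 7.66 and 7.76 on the stomach arrays, 9.32 and 8.93 on the intestine arrays, and 9.04 and 9.02 on those of Barx1 intestine, with the same lowest and highest arrays as the simple keratins. Fabp1 read 7.56 and 7.52, 8.88 and 9.84, and 9.54 and 8.82 on the same arrays. The replicate with the higher simple keratins thus had the lower Fabp1 in intestine and the higher Fabp1 in Barx1 intestine. Between Barx1 intestine and intestine 0 of the 19 passed by limma (3.98% of all genes in either direction). At an unadjusted p under 0.05 there, Apob was lower (-0.78) and Apoa4 higher (0.98), as were Neurog3 and Atoh1, whose probe sets were above background on 0 and 1 of the arrays.

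The squamous and foregut list had 1 of 14 genes past the threshold in each comparison, Sprr3. Over all genes 16.9% passed in stomach against intestine, 3.98% in Barx1 intestine against intestine and 5.20% in Barx1 intestine against stomach. Sprr3 fell in stomach (-1.13) and in Barx1 intestine (-0.71) against intestine and was higher in Barx1 intestine than in stomach (0.41). Krt5, the basal keratin, ran from 5.14 to 5.49. Krt6a read 5.97 and 7.18 on the stomach arrays, 8.87 and 7.74 on the intestine arrays, and 6.20 and 5.57 on those of Barx1 intestine. It was chosen after its values were seen.

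Because the Hedgehog ligands were not measurable, genes of Hedgehog signalling and response are given beside them. The list holds pathway components beside targets, so its counts are no measure of Hedgehog activity. Of 16 measured, 2 rose in stomach against intestine, Gas1 (1.33), of a Hedgehog co-receptor, and Gli2 (0.63), of a transcriptional effector. Another 2 fell, Foxf2 (-1.40) and Nkx2-3 (-2.31), factors of gut mesenchyme. Of all genes, 8.86% passed as higher and 8.09% as lower. In Barx1 intestine against intestine 3 fell, Bmp4 (-1.03), Foxf2 (-0.69) and Nkx2-3 (-1.83), where 2.12% of all genes passed as lower. Ptch1, the receptor and a general target, read 9.19 to 9.50 over the 6 arrays, while the targets Gli1 (4.57 to 4.71) and Hhip (4.12 to 4.51) were below background on all of them.

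Markers of other cells moved between the same arrays. The 18 macrophage and leukocyte genes, 17 of them above background on all arrays, had a mean level of 8.14 and 7.85 on the stomach arrays, 8.52 and 9.39 on the intestine arrays, and 6.91 and 7.71 on those of Barx1 intestine. In every group the replicate with the higher epithelial mean had the lower leukocyte mean. In Barx1 intestine against intestine 8 of the 18 fell (2.12% of all genes), such as C1qa (-2.53) and Fcgr3 (-2.49), with a median of -1.83. The list of 13 neuronal and glial genes had mean levels of 6.91 and 6.80 on the stomach arrays, 7.23 and 7.30 on the intestine arrays, and 6.34 and 6.59 on those of Barx1 intestine. Of the 9 mesothelium genes 5 were above background throughout. In stomach against intestine 3 of the 9 rose (8.86% of all genes) and 3 fell (8.09% of all genes). Wt1 was higher (1.33) and Msln lower (-1.13, below background in stomach). The mean deviation of the mesothelium list stayed between -0.12 and 0.08 on every array and that of the endothelium list between -0.10 and 0.14. That of the mesenchyme list stayed between -0.23 and 0.26. In all 3 lists members moved in opposite directions, which such a mean hides. In stomach against intestine, 1 of 16 endothelium genes rose and 4 fell, and 7 of 20 mesenchyme genes rose and 1 fell. The mean deviation of the 33 epithelial genes ran from -0.62 to 0.85. The part of these other cells in the epithelial differences was not tested.

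**Figure D4:**
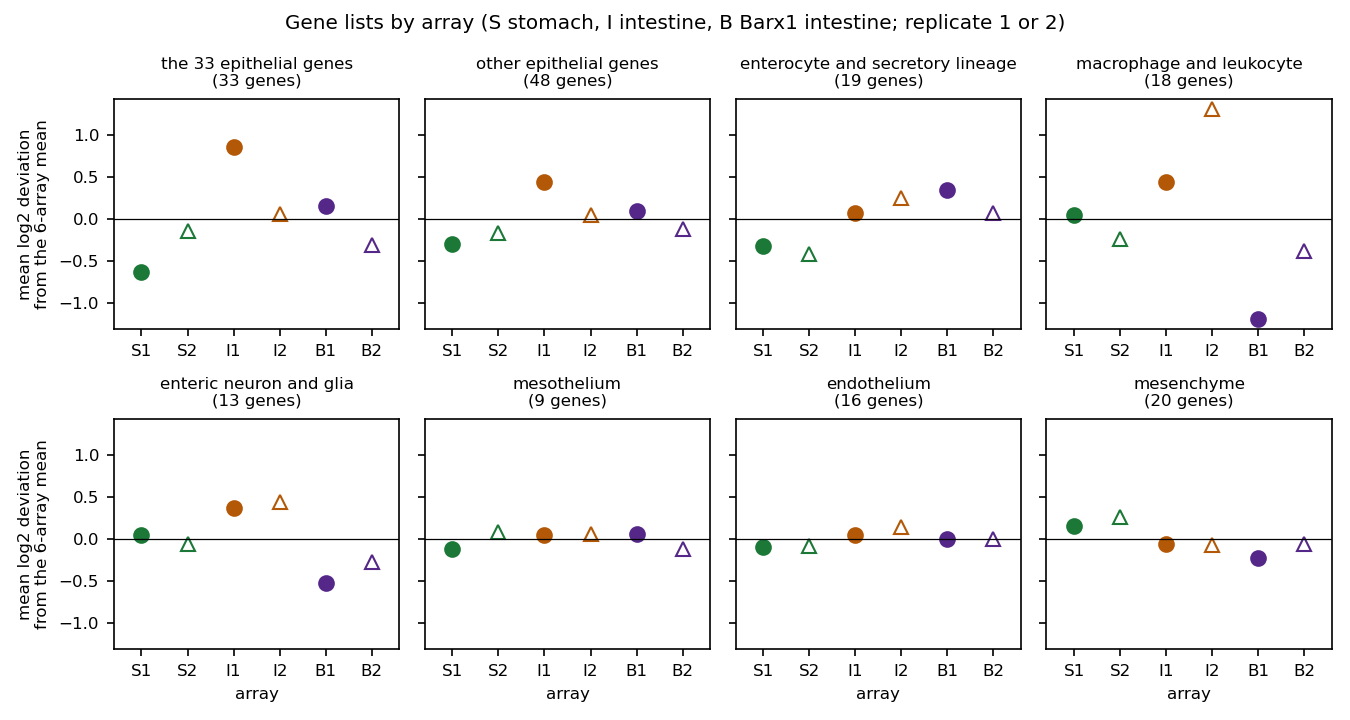
Mean log2 deviation from each gene's mean over the 6 arrays (vertical axes) on each array (horizontal axes; S stomach, I intestine, B Barx1 intestine, with replicate number) for the 33 epithelial genes and 7 other lists. The epithelial genes run from -0.62 on stomach replicate 1 to 0.85 on intestine replicate 1, and the leukocyte genes from -1.18 on Barx1 intestine replicate 1 to 1.30 on intestine replicate 2.

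The start regions of the 33 genes, whether or not they followed the array order, were searched for short motifs in the 250 bases before the start, on both strands, in sequences from RefSeq on GRCm38.p6. Of the 33 genes 24 had an entry, with 31 starts. The E-box CAGGTG, which the repressors ZEB and SNAI bind in promoters of epithelial genes, was in 61.3% of the 31 regions and in 17.2% of all 32851. In genes, 18 of the 24 held it in at least 1 region, among them Epcam, Cldn4, Cldn6, Cldn7, Ocln, Krt7, Krt8, Krt18 and Foxa1, but also Muc1, Lamb3 and Tjp3, which were below background. The GC box GGGCGG was in 61.3% and 32.7%, the ETS motif AGGAAG in 32.3% and 29.5%, the FOXA motifs TGTTTAC or TGTTTGC in 3.23% and 7.29%, and TATAAA in 6.45% and 12.4%. Matches that overlapped were all kept. Genes of ZEB and SNAI factors were measured, with Zeb1 at 10.18 to 10.47, Zeb2 at 9.98 to 10.57, Snai1 at 6.04 to 6.61 and Snai2 at 8.79 to 9.16. Among them Snai2 fell in stomach against intestine (-0.30, adjusted p = 0.0344), and they were chosen after their values were seen.

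Shown are 4 regions with the E-box, of genes whose levels followed the array order, and those of Dsp and Spint1, called in stomach against intestine, which hold no match. Capitals mark the E-box on either strand, and each runs 5′ to 3′ and ends at the base before the start.
Epcam (chr17:87635729-87635978, plus strand): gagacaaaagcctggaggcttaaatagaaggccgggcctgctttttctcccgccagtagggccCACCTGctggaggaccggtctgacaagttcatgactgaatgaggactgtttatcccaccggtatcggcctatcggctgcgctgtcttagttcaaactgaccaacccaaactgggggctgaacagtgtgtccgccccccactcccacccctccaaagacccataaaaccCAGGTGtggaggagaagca
Cldn4 (chr5:134946935-134947184, minus strand): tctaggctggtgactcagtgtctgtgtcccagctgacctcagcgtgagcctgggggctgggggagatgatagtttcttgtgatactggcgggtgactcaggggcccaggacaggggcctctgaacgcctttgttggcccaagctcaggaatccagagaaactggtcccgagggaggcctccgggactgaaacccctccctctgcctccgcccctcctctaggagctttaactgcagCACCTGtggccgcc
Krt8 (chr15:102004343-102004592, minus strand): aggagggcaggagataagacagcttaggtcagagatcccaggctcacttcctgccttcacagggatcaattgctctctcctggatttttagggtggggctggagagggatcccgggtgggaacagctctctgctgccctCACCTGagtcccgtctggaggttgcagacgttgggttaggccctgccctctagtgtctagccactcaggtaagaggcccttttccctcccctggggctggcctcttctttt
Foxa1 (chr12:57546112-57546361, minus strand): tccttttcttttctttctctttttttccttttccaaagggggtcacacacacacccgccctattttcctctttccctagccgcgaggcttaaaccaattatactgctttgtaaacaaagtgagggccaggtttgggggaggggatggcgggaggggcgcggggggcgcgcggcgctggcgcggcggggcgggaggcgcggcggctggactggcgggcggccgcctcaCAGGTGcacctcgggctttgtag
Dsp (chr13:38151044-38151293, plus strand): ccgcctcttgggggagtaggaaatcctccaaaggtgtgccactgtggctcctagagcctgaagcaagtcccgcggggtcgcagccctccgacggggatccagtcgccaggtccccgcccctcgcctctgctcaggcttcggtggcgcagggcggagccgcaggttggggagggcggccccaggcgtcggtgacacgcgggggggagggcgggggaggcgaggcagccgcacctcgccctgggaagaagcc
Spint1 (chr2:119237110-119237359, plus strand): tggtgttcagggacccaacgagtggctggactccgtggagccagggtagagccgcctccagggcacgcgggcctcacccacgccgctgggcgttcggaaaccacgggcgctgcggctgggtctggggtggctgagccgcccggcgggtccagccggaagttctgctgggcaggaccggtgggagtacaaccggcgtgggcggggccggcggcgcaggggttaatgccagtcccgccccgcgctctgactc
Epcam held 2 matches and Cldn4, Krt8 and Foxa1 1 each. The Foxa1 region precedes a start inside the span of the gene (chr12:57540628-57548029) and not its outermost start. Dsp and Spint1 held GC boxes, 4 and 3 of them, which are not capitalised. A match is a description of the letters and not of binding.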

How the data were processed

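Total RNA of 6 cultures was measured on Affymetrix arrays. The submitters' processing notes name RMA as the method behind the log2 values that the authors deposited (version not given in the sources used here); the log2 scale was read from the values. RMA brings arrays to a common distribution, so a shift of most genes alike would be removed. Depth has no counterpart on arrays, and their number limits the precision. Of 22690 probe sets, 20380 named 1 gene in the platform annotation; 691 named several and were left out, as were 1555 without a name and 64 controls. A probe set can match near-identical transcripts. The probe set with the highest mean represented each of 12393 genes.

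All arrays entered 1 fit of 3 group means in limma 3.58.1 (R 4.3.3), with Benjamini-Hochberg adjustment over all genes of a comparison and a threshold of 0.05. Every adjusted p comes from limma. The fit was tested on simulated data with independent noise for each gene. Such data lack the replicate shifts that many of the 33 genes share, so the error rate for these genes was not checked. Tables and plots used Python 3.11.15, numpy 2.4.6, pandas 2.3.3 and matplotlib 3.10.9. Members and lists were chosen with earlier results of these data known. Named are all 33 genes, Barx1, up to 4 called genes of each list by smallest p (2 where none was called), the 10 genes most alike in profile, and others chosen after their values were seen (Cdx1, Cdx2, Krt5, Ptch1, Gli1, Hhip, Atoh1, Vim, Acta2 and those so marked). SD and SE rest on 2 arrays a group. Alternatives covered scaling, a filter on dim genes (28 of the 33 genes passed), all probe sets, a variance trend, 2 groups alone, the replicate number as a block, the threshold and leaving out each array.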

Additional observations from a re-analysis of the deposited data

How the results depend on the processing

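Under median centring, a second quantile normalisation, the filter on dim genes and the mean of all probe sets, the counts of called genes among the 33 did not change and the medians kept their sign. The mean of all probe sets moved the median of Barx1 intestine minus intestine to -0.36. The median of all genes was between -0.00077 and 0.053 under each scaling. In stomach against intestine, the count of lower genes was 3, and it was 8 with an intensity trend, 9 at an adjusted p under 0.10, and 0 to 12 without 1 array. In Barx1 intestine against intestine it was 1, with 0 in a fit of those 2 groups alone and 0 to 1 without 1 array. For Barx1 intestine above stomach it was 0, with 1 in a fit of those 2 groups alone, 1 at an adjusted p under 0.10, and 0 to 1 without 1 array. Leaving out 1 array moved the medians between -1.44 and -0.38, between -1.02 and -0.052, and between 0.018 and 0.44 in the 3 comparisons in that order. A fit without 1 array leaves its group with 1, which is assumed to vary like the others. Same-numbered arrays were not treated as paired, since their deviations from the group means correlated at -0.216 (stomach with intestine), 0.203 (Barx1 intestine with intestine) and -0.0615 (Barx1 intestine with stomach). With the replicate number as a block, the counts of lower genes were 2 and 1 against intestine (12.2% and 2.15% of all genes in either direction). Between Barx1 intestine and stomach 0 genes were called with it (2.72% of all genes). With the stomach numbers crossed, a setting added after seeing the data, 17, 9 and 3 genes were called in the 3 comparisons. The shares of all genes called were 15.2%, 4.60% and 3.09%. This crossing follows the replicate order that most of the 33 genes show, so it takes up their own replicate spread. The higher counts follow from that choice and give no support to the calls. Of the single genes, Dsp lost its call in 1 of 14 alternatives and Foxa1 in 7, both in stomach against intestine. Spint1 lost its call in 2 in stomach against intestine and in 5 in Barx1 intestine against intestine. The cause was not tested. The medians and these single genes kept their sign in the alternatives run. The other genes were refitted as well, but their signs were not compared between settings.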

Other observations

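Beside the 13 epithelial genes, 28 other genes differed by more than 0.5 between replicates in all 3 groups. Of these, 15 had the replicate order of the epithelial genes, higher in intestine replicate 1, Barx1 intestine replicate 1 and stomach replicate 2. They held further genes of epithelia, such as Dsc2, of a desmosomal cadherin, Mal2, Kcnk1 and Sprr1a, and also the striated muscle genes Acta1 and Myl7. Acta1 read 7.87 and 8.65 on the stomach arrays, 11.49 and 9.86 on the intestine arrays, and 9.92 and 9.27 on those of Barx1 intestine. The other 13 had another order and included genes of macrophages, such as Cd68, Lyz2, Gpnmb and Slc11a1. Cd68 read 6.96 and 6.46 on the stomach arrays, 7.13 and 8.36 on the intestine arrays, and 6.06 and 6.98 on those of Barx1 intestine. These genes were chosen after their values were seen.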
